A study of Mus musculus with 2 samples.

Results

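The Hox cluster genes were examined in a ChIP-seq of the homeoprotein Dlx5 in a murine T-cell lymphoma. Members were all protein-coding genes of the RefSeq table for GRCm38.p6 (the assembly known as mm10) with a symbol of the form Hoxa, Hoxb, Hoxc or Hoxd and a number. There were 39 such genes among 21883 protein-coding genes, with 11 in the Hoxa cluster, 10 in the Hoxb cluster, 9 in the Hoxc cluster and 9 in the Hoxd cluster. The data comprise 1 Myc-Tag ChIP library and 1 input library, both of Lck-Dlx5 T-cell lymphoma, in which the Lck promoter drives Myc-tagged Dlx5 in thymocytes. The labels give both as primary tumor, with the strain written as C57BL/6 for the ChIP and C57BL/7 for the input. The study's methods instead name a cell line derived from 1 such lymphoma and an IgG control, and it describes such lines as monoclonal. The age of the animal was not given in the sources used here. Neither library had a replicate, so no difference below has a replicate check.

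Hox genes encode homeodomain transcription factors that give cells their position along the body axis. In the mouse they lie in tight clusters on different chromosomes, and the order of the genes along each cluster follows the order of their domains along the body. Polycomb group complexes keep the clusters silent where they are not used, and complexes containing MLL (Kmt2a) keep them active. In blood, the Hoxa cluster is known for its expression in stem and progenitor cells and for its activation in a subset of human T-ALL. Dlx genes encode homeodomain proteins of another family, which bind sequences with a TAATT core.

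The deposited file lists called intervals, each with a summit and its height, a whole-number score without a stated normalization. There were 3477 Myc-Tag intervals and 28 input intervals, and each input interval had the same coordinates as a Myc-Tag interval. Summit heights ranged from 9 to 301 with a median of 16. The submitters' processing notes name mm9, whereas the coordinates fitted mm10 genes. On the chromosomes that carry the Hox clusters, 53.7% to 59.6% of summits were no more than 1 kb from where a coding gene starts or ends in the mm10 table. The depth behind the heights is unknown, as no read totals were used here, and a site below the unstated calling threshold would not be listed.

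Only 1 Myc-Tag interval lay at a Hox gene. By the rule of an interval in the gene body or within 10 kb on either side, 2 of 39 Hox genes had one (5.13%), Hoxc6 and Hoxc8, and they shared it. By the same rule, 19.0% of all protein-coding genes had an interval. None of the 11 Hoxa, 10 Hoxb and 9 Hoxd genes had one. A count of 0 of 30 genes allows a share of up to 10%, but neighbouring Hox genes share their windows, so these are fewer than 30 separate observations. The share over all protein-coding genes was 17.9% on chromosome 6 (Hoxa), 22.9% on chromosome 11 (Hoxb), 36.7% on chromosome 15 (Hoxc) and 19.0% on chromosome 2 (Hoxd). The only Hox interval was thus on the chromosome with the highest of these background shares, and the part of this in the Hoxc call was not tested.

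The contrast with other genes depended on whether genes or bases were counted. The 4 clusters with 10 kb on either side together spanned 572 kb, and 1 interval in that length is 1.75 per Mb. Over all nuclear chromosomes the density was 1.29 intervals per Mb. At the density of its own chromosome, each cluster would carry 0.153 (Hoxa), 0.453 (Hoxb), 0.344 (Hoxc) and 0.183 (Hoxd) intervals, or 1.13 in all. The observed count of 1 has an exact 95% Poisson interval of 0.0253 to 5.57, which covers counting error only. By length, the number of intervals in the Hox clusters was therefore not distinguishable from that of their chromosomes. At those densities, the 3 clusters without an interval would together carry 0.789. Length takes in stretches without genes, whereas 58.4% of all summits lay within 1 kb of a coding gene end. Counted per 100 protein-coding genes, the chromosomes carried 16.2 (Hoxa), 17.7 (Hoxb), 33.9 (Hoxc) and 15.7 (Hoxd) intervals. Beside these rates, the 39 Hox genes had 1 interval, and this difference was not tested.

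**Figure D1:**
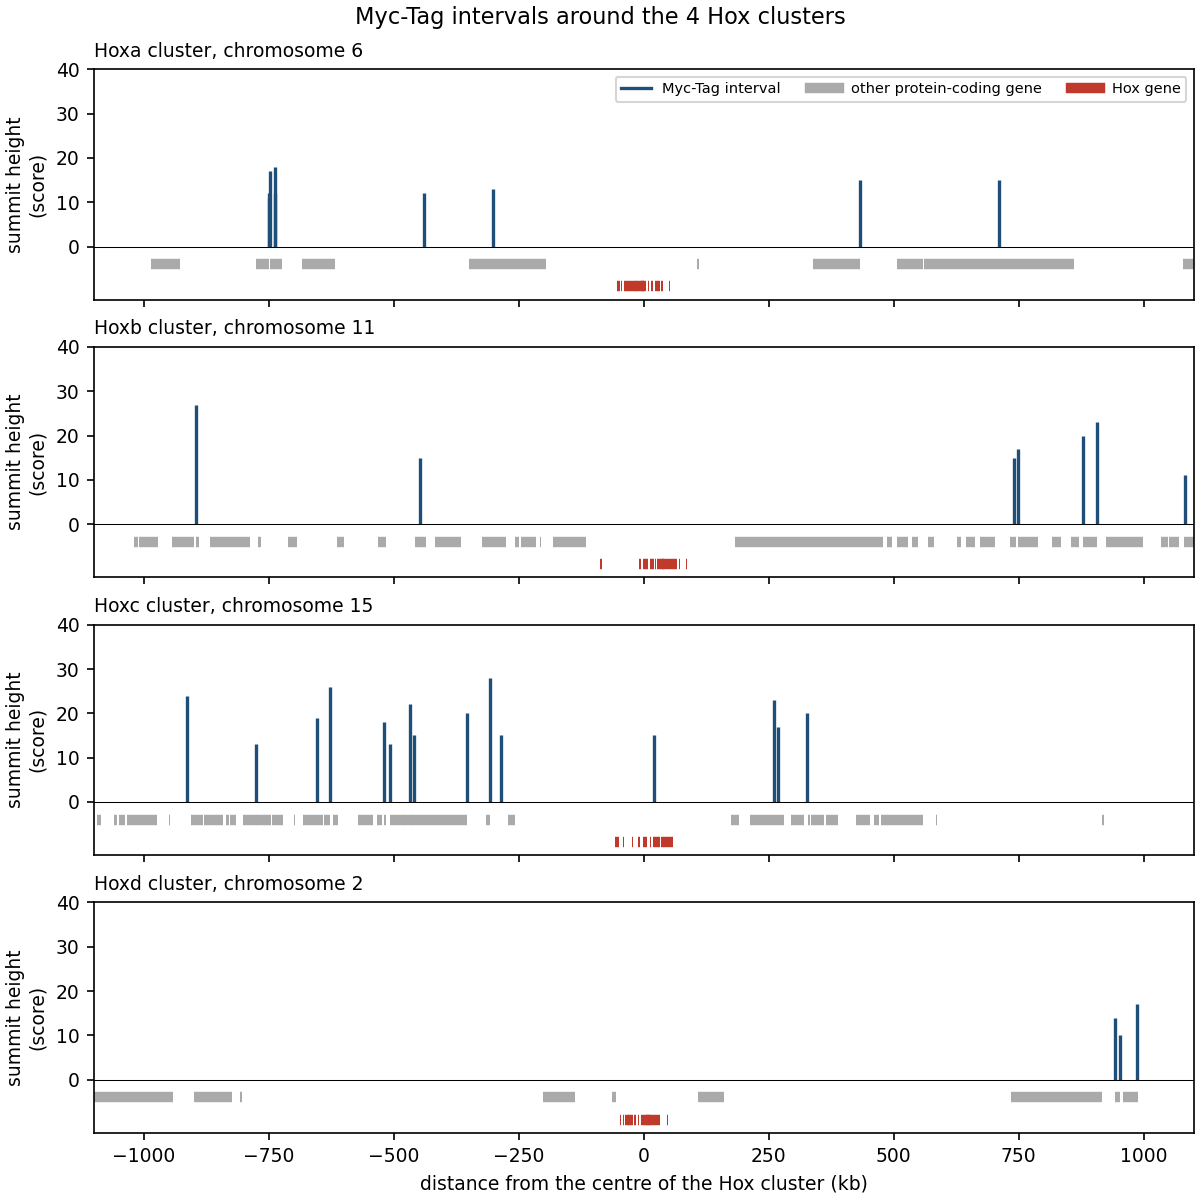
Myc-Tag intervals (blue lines, height of the summit as a score) around the centre of each Hox cluster, with Hox genes in red and other protein-coding genes in grey along the x axis in kb. A single interval, with a height of 15, stands above Hox genes, in the Hoxc cluster, while the other 3 clusters lie in stretches without intervals.

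The interval of the Hoxc cluster spanned chr15:102998938-102999656 in mm10 and was 719 bp wide. It had a summit at 102999264 with a height of 15 in the Myc-Tag library, and no interval was called there in the input library. The nearest input summit to the Hoxc cluster was 3791 kb away. Hoxc6, which specifies thoracic positions, spans 102998226 to 103011882, and the interval lay inside this gene with its summit 1038 bp from the end with the lower coordinate. The table used here gives no exons, so exon and intron were not separated. Hoxc8, another gene of the trunk, ends at 102994275, which is 4989 bp from the summit. The interval overlapped no other annotated gene. The long noncoding RNA gene Gm29905 is transcribed from the minus strand, and its start lay 1097 bp from the summit, so that the summit was upstream of it.

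The height of this interval was that of a typical peak in the library. Of all Myc-Tag summits, 1739 were higher, 345 had the same height of 15 and 1393 were lower. Its width exceeded that of 1547 intervals (44.5%). On chromosome 15, where the paper's karyotypes list trisomy in lymphoma lines of these mice, the median height was 18 and the median width 1017 bp. There, 193 of 263 summits (73.4%) were higher than the Hoxc6 summit, and 44 intervals were narrower. With heights at or above the median of 16, no Hox gene had an interval, against 10.7% of all protein-coding genes, and with heights of at least 19 again none, against 6.05%.

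**Figure D2:**
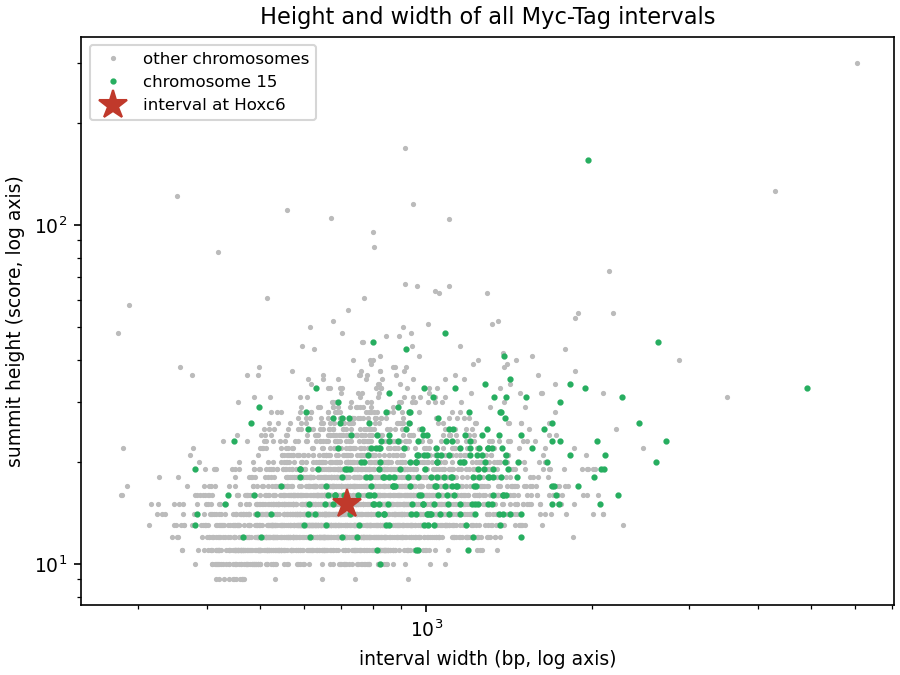
Width (x axis, bp) and summit height (y axis, score) of all 3477 Myc-Tag intervals on log axes, with those of chromosome 15 in green. The interval at Hoxc6 (star, 719 bp and height 15) lies in the middle of the cloud and below most of the other chromosome 15 intervals.

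The other Hoxc genes were close to this interval without reaching it. Hoxc9 was 14.8 kb and Hoxc5 14.7 kb from the summit, so their lack of a call depended on the distance of 10 kb. Hoxc4 was 18.8 kb, Hoxc10 27.4 kb and Hoxc11 42.6 kb away. Hoxc12 at 60.7 kb and Hoxc13 at 70.5 kb, the posterior genes of the cluster, were the farthest. When 50 kb were allowed, 7 of 39 Hox genes had the interval, all in the Hoxc cluster, against 33.4% of all protein-coding genes. With the gene body alone, 1 Hox gene had an interval, Hoxc6, against 13.4%. On the Hoxc flanks, the next summits were 228 kb below the cluster with a height of 15 and 203 kb above it with a height of 23.

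The 11 Hoxa genes shared a single nearest summit, at 51905840 of chromosome 6 with a height of 13. The distance was 257 kb for Hoxa2, an anterior gene of the hindbrain, and largest for Hoxa13, a posterior gene of limb and gut, at 353 kb. Hoxa9 and Hoxa10, which act in blood progenitors and are used by leukemias, were 317 kb and 325 kb away. The order of these values is the order of the genes, since they were all measured to the same summit. On the other side of the cluster, the next summit was 380 kb (379.7 kb) away with a height of 15. Between both flanking summits, 735 kb apart, lay all Hoxa genes and 2 other protein-coding genes. Of 3456 gaps between neighbouring summits in the genome, 801 were at least as long, and 55.6% of all protein-coding genes lay in such a gap.

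The 10 Hoxb genes also shared a nearest summit, at 95834368 of chromosome 11 with a height of 15. Hoxb13, which lies apart from the others and is known for the prostate, was nearest at 360 kb (359.9 kb), and Hoxb1, a hindbrain gene, was farthest at 531 kb. Hoxb4, known for its use in expanding blood stem cells, was 484 kb away. The flanking summits were 1188 kb apart and enclosed the Hoxb genes and 18 other protein-coding genes without an interval between them. Gaps of at least this length numbered 538, and 43.6% of all protein-coding genes lay in such a gap.

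The 9 Hoxd genes were the farthest from any summit. All of them were nearest to a summit at 75659824 of chromosome 2 with a height of 14, at distances from 895 kb for Hoxd1 to 988 kb for Hoxd13, a gene of digits and genitalia. The summit on the other side was 1282 kb from the cluster and had a height of 11. These summits were 2273 kb apart, and 311 gaps in the genome were at least as long. Such gaps are common around genes, since 30.4% of all protein-coding genes lay in a gap of this length or more.

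Over all 39 Hox genes, the median distance to the nearest summit was 353 kb, against 134 kb over all protein-coding genes, whose quartiles were 24.8 kb and 529.8 kb. The Hoxa genes and 9 of the 10 Hoxb genes lay within these quartiles, Hoxb1 (531 kb) and the Hoxd genes above them, and Hoxc4, Hoxc5, Hoxc6, Hoxc8 and Hoxc9 below them. Of the Hox genes, 30 (76.9%) were more than 100 kb from a summit, as were 55.4% of all protein-coding genes. Because each cluster shares its summit, these 39 distances amount to 4 separate observations.

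**Figure D3:**
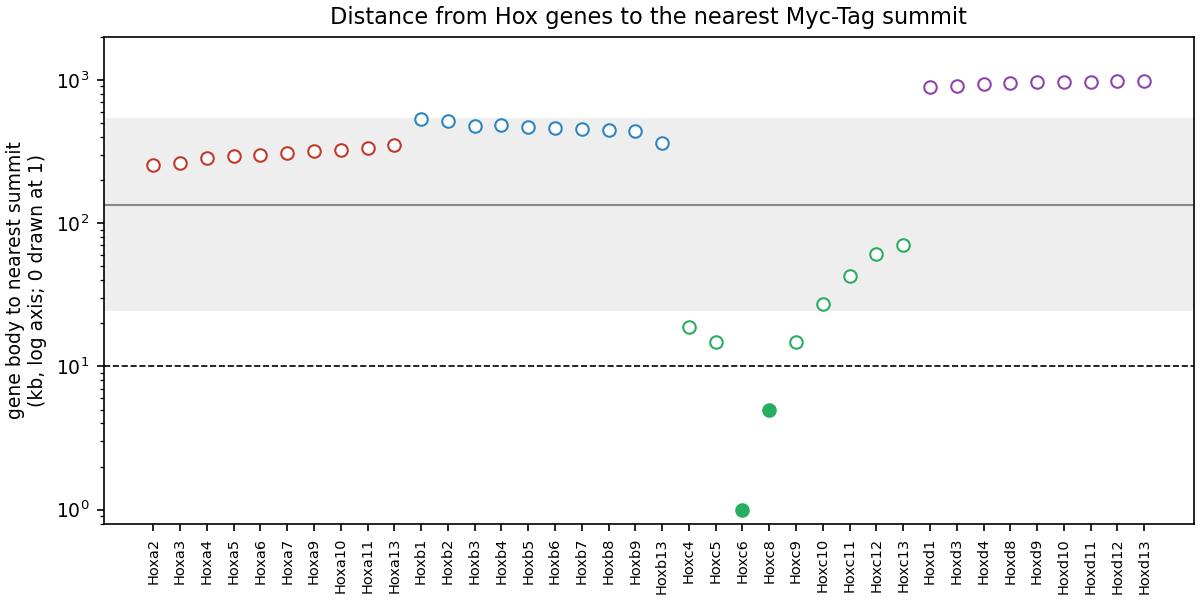
Distance in kb (log axis, 0 drawn at 1) from Hox genes to the nearest Myc-Tag summit, with filled points for genes with an interval within 10 kb (dashed line), and with the median (grey line) and quartiles (grey band) of all protein-coding genes. Hoxc6 and Hoxc8 lie under the dashed line, and the Hoxd genes lie above the band at 895 to 988 kb.

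Gene starts were examined in the RefSeq promoter table, which holds windows of 250 bases before to 50 bases after the start. It held 24 windows for 22 of the 39 Hox genes, with 10 windows of Hoxa, 10 of Hoxd, 3 of Hoxb and 1 of Hoxc (Hoxc4). None of the 24 windows was overlapped by a Myc-Tag interval, which allows a share of up to 12.5%, against 9.96% of all 21262 windows of protein-coding genes. This followed from the gene distances above, since all Hoxa, Hoxb and Hoxd genes lay more than 100 kb from any summit. The Hoxc4 window was 34.9 kb from the nearest summit, and Hoxc6 and Hoxc8 had no window. Windows rich in CpG were defined as those with at least 50% G+C and a ratio of observed to expected CpG of at least 0.6. Of 9599 CpG-rich windows, 19.0% were overlapped, against 2.50% of the other windows. Among the Hox windows, 11 were CpG-rich (45.8%, against 45.1% of all), and 0 of 11 were overlapped, which allows up to 27.3%. Windows of the same cluster are not separate observations, so these limits are too narrow. At this number of windows, a share equal to the background could not be told from 0.

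The letters TAATT were searched on both strands, as TAATT or its reverse complement AATTA, and a TAATTA, in which both overlap, was counted once. They were found in 10 of 24 Hox windows (41.7%) and in 23.5% of all windows. The shares were closer in the 250 bases before the start alone, at 7 of 24 (29.2%) and 22.2%, and for the longer TAATTG or CAATTA, at 2 of 24 (8.33%) and 6.83%. Among CpG-rich windows, 5 of 11 Hox windows and 11.0% of all held them. By contrast, TAATT was found in 296 of the 2117 windows overlapped by an interval, and in 4690 of the 19145 others (24.5%). Within the CpG-rich class, 211 of 1054 windows with TAATT and 1615 of 8545 without it (18.9%) were overlapped. A match in these letters describes the sequence and is not a bound site.

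The 5 CpG-rich Hox windows that hold TAATT are shown because they combine the base composition of the called promoters with the core sequence of Dlx sites, and no interval was called at any of them. They are printed in the direction of the gene from RefSeq GRCm38.p6, with the TAATT or AATTA letters in capitals.
Hoxa3 (chr6:52213018-52213317, minus strand): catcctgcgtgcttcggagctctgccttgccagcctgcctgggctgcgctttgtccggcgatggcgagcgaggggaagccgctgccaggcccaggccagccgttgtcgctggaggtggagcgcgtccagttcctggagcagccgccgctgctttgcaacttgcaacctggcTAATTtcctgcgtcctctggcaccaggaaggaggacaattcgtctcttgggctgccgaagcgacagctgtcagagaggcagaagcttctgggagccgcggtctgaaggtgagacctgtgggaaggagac
Hoxa5 (chr6:52204538-52204837, minus strand): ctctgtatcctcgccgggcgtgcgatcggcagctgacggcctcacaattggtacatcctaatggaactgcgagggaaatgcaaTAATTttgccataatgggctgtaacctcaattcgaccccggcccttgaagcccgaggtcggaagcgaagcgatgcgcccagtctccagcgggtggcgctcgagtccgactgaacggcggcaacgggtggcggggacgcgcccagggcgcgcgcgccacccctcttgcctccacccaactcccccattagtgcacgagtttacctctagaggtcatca
Hoxa10 (chr6:52234890-52235189, minus strand): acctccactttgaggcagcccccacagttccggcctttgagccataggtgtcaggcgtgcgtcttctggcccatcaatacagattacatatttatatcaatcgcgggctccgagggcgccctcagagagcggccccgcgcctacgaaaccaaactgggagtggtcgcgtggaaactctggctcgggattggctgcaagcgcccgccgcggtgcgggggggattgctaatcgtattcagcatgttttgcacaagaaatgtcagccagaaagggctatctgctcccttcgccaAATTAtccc
Hoxd10 (chr2:74691641-74691940, plus strand): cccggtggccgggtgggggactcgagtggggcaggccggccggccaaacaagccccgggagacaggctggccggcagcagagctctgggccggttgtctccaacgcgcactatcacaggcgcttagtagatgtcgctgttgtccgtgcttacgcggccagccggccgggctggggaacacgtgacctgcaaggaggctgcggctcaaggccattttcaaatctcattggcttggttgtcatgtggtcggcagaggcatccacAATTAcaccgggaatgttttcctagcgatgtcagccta
Hoxd11 (chr2:74682073-74682372, plus strand): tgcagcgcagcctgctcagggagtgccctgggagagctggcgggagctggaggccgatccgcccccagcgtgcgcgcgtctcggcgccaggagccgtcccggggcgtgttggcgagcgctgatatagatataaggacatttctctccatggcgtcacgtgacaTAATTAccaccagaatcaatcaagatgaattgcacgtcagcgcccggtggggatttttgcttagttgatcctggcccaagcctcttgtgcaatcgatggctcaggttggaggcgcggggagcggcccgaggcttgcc
Their nearest summits were between 299 kb (Hoxa5) and 977 kb (Hoxd11) from the window. Hoxa5 had 61.7% G+C and a CpG ratio of 1.02, and Hoxa10, at the start nearer to Hoxa9, had 57.3% and 0.853. For comparison, the windows of Hnrnpa1 and Hnrnpa3 are given, which belong to hnRNP genes on the flanks of the Hoxc and Hoxd clusters and were overlapped by an interval.
Hnrnpa1 (chr15:103240147-103240446, plus strand): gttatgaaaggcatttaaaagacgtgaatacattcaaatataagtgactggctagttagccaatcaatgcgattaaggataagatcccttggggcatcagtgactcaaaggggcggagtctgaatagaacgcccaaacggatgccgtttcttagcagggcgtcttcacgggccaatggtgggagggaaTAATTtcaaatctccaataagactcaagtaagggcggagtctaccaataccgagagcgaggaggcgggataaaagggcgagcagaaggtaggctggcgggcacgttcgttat
Hnrnpa3 (chr2:75659009-75659308, plus strand): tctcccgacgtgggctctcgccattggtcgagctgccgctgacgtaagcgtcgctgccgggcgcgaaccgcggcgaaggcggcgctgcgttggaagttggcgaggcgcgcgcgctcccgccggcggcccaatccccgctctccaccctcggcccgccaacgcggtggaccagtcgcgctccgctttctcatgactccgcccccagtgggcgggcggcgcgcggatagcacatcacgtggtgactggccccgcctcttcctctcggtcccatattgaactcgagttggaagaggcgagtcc
The Hnrnpa1 window, with 48.3% G+C and a CpG ratio of 0.970, holds TAATT and lay 0.371 kb from a summit of height 23. At this G+C content it was not CpG-rich, unlike the Hox windows shown. The Hnrnpa3 window, with 70.3% G+C and a ratio of 1.19, holds no TAATT and lay 0.516 kb from a summit of height 14. By the counts over all windows given above, called and uncalled windows were found both with and without these letters.

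**Figure D4:**
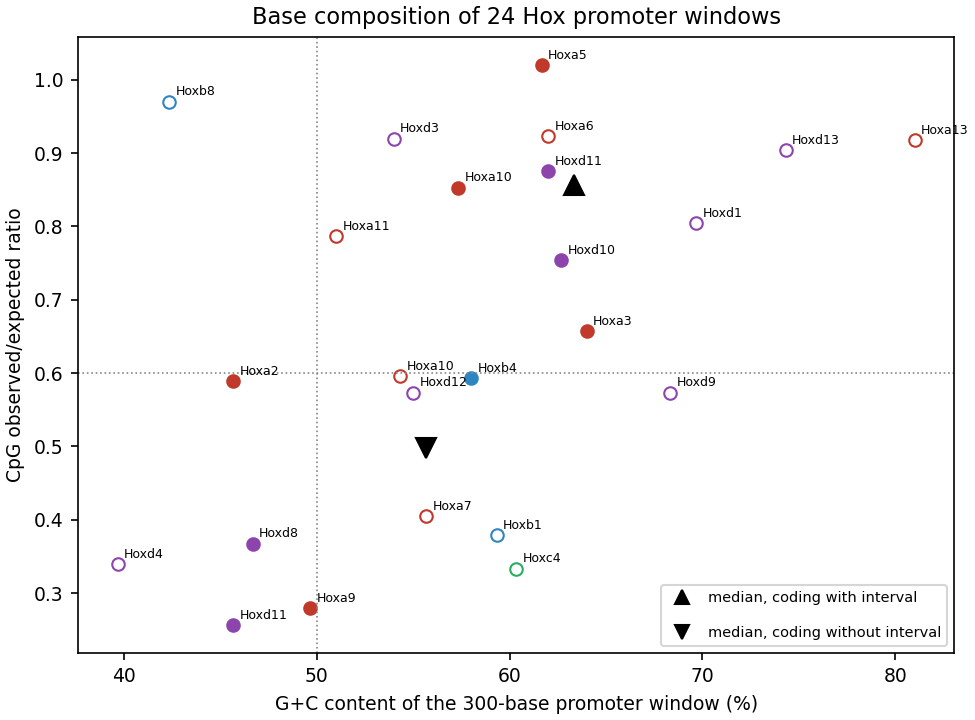
G+C content (x axis, %) and CpG ratio (y axis) of 24 Hox promoter windows coloured by cluster, filled where TAATT is present, with the medians of all protein-coding windows with an interval (upward triangle, 63.3% and 0.856) and without one (downward triangle, 55.7% and 0.499). The dotted lines mark 50% and 0.6, and 11 Hox windows lie above and to the right of both.

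Outside the clusters, intervals were found at genes of the flanks. Of the 3 nearest protein-coding genes on either side of each cluster, 8 of 24 had an interval within 10 kb (33.3%, against the background of 19.0%). By cluster these were 3 of 6 next to Hoxa, 0 of 6 next to Hoxb, 4 of 6 next to Hoxc and 1 of 6 next to Hoxd. The shares over all protein-coding genes of those chromosomes were 17.9%, 22.9%, 36.7% and 19.0%, in the same order. With 6 genes per cluster, a difference from these shares was not tested. Next to Hoxc, the ATP synthase subunit gene Atp5g2 had a summit of height 28. Cbx5, which encodes the heterochromatin protein HP1 alpha, and Hnrnpa1, a splicing factor gene, shared intervals of heights 23 and 17, and Atf7 had heights of 15 and 20. Calcoco1 (13.8 kb from a summit) and Smug1 (70.8 kb), which lie nearest to the Hoxc genes, had none.

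On the flanks of Hoxa, Cbx3, the HP1 gamma gene, lay 672 kb from the cluster and had 3 intervals with heights of 17, 18 and 12. Skap2, an adaptor of immune cell signaling, had 1 of height 13 and Hibadh 1 of height 15. Snx10, Tax1bp1 and the homeobox gene Evx1, which adjoins Hoxa13, had none, and Evx1 was 322 kb from a summit. Next to Hoxb, Atp5g1, Calcoco2, Ttll6, Skap1, Snx11 and Cbx1 were all without an interval, at 213 kb (Cbx1) to 290 kb (290.1 kb, Ttll6) from a summit. On the flanks of Hoxd, Hnrnpa3, 894 kb from the cluster, had heights of 14 and 10. Atp5g3 (756 kb from the cluster), Gm50595 (687 kb), Lnpk, Mtx2 and the homeobox gene Evx2 had none. Evx2 lies 6.71 kb from the Hoxd genes, and its nearest summit was 998 kb away.

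Genes known to regulate Hox clusters or to act with Hox proteins were counted by the same rule, with the share of 19.0% over all protein-coding genes as background and no test of a difference. Of 19 genes of the MLL complex and its partners, which maintain Hox expression, 9 had one (47.4%). Kmt2a itself, which encodes MLL1, had a summit of height 27 at 0.12 kb from the gene. Rbbp5, a core subunit, had a height of 23, and the fusion partner Aff1 had 3 intervals of heights 22, 22 and 20. Dot1l, the H3K79 methyltransferase, had heights of 18 and 20, Mllt10 had 19 and Ash1l 17. Among the genes without an interval, Kmt2b was 61.0 kb from the nearest summit.

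Of 30 Polycomb group genes, 7 had an interval (23.3%), a share near the background of 19.0%. Jarid2, a cofactor of Polycomb repressive complex 2, had a summit of height 45 and a second of 11, and Mtf2, another cofactor, had 36. Both were taller than the Hoxc6 summit of 15. Ezh2, the H3K27 methyltransferase, had a height of 18, Pcgf2 17, Phf19 16 and Eed 12. CTCF and cohesin shape the domains of Hox clusters, and their list of 12 genes also holds the zinc finger factors Maz and Yy1. Of these 12 genes, 7 had an interval (58.3%, against 19.0%). Among them were Maz (tallest 24), Pds5b (21, at 8.05 kb from the gene), Stag1 (19), Ctcf (18), Nipbl (17) and Rad21 (15). Nipbl and Rad21 lie on chromosome 15.

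Of 11 genes for TALE homeodomain proteins, 3 had an interval (27.3%, against 19.0%), namely Meis3 with a height of 20, Pbx2 with 16 and 14, and Tgif2 with 12. At 1 kb in place of 10 kb, 1 of the 11 was left, against 14.2% of all protein-coding genes. Meis1, a Hox partner in blood cells, had none and was 901 kb (900.5 kb) from a summit. None of 8 ParaHox and Evx genes had an interval, which is too few genes to tell 0 from 19.0%. Of 14 other homeobox genes, most of them known from T-ALL, 1 had an interval (7.14%), Satb1, a chromatin organizer of thymocytes, with 4 summits of height 11. In another family of developmental transcription factors, 8 of 44 forkhead genes had one (18.2%), with Foxo1 tallest at 22.

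T-cell genes served as a check of the labelled cell type, although a ChIP peak is not a measure of expression. Of 15, 8 had an interval (53.3%), with the tallest at Ptcra (18), Lck (17), Cd3d and Cd3g (15, from shared intervals), Cd8b1 (14) and Bcl11b (13), while Cd3e was 16.8 kb from a summit. None of 6 myeloid genes had one, which is too few genes to tell 0 from 19.0%. Of 7 B-cell genes, 3 had one at 10 kb, among them Cd79a and Pax5, and 1 at 1 kb.

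**Figure D5:**
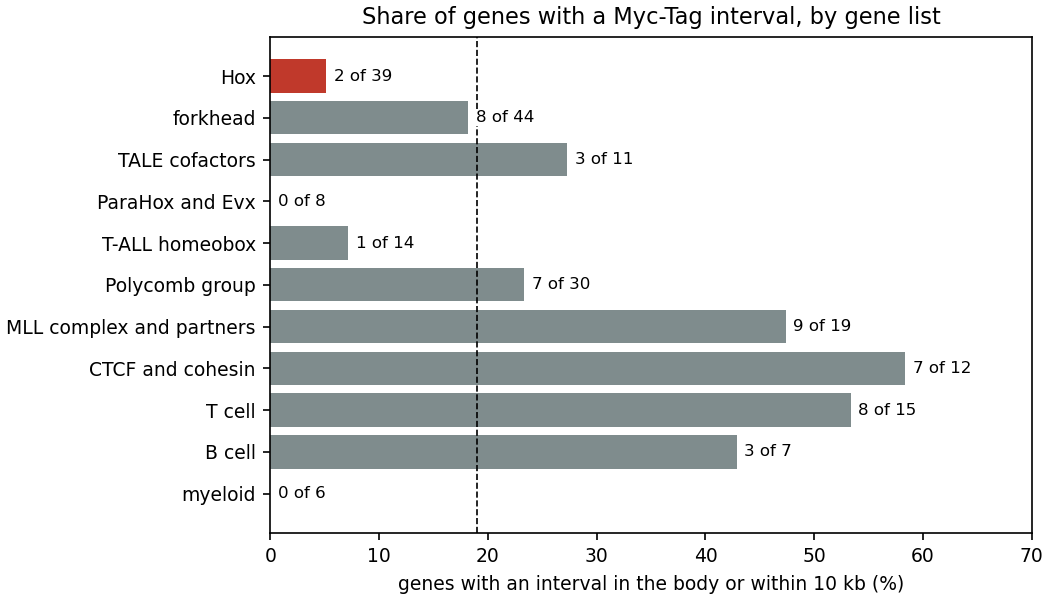
Share of genes (x axis, %) with a Myc-Tag interval in the body or within 10 kb, for the Hox genes (red) and the other lists (grey), with counts at the bars and the share over all protein-coding genes as a dashed line at 19.0%. The Hox genes, at 5.13%, and the ParaHox and Evx, other homeobox and myeloid lists lie to the left of the line. The Hox bar rests on 1 interval, the lists are small, and no difference from the line was tested.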

How the data were processed

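For the authors, Active Motif performed the ChIP-seq on an Illumina GA II and called the peaks, with the MACS p-value as criterion. The submitters' processing notes name BWA and mm9. The MACS version, control and threshold are not given in the sources used here. The deposited value of each summit is a score, its height, with no stated normalization, and interval starts are printed counted from 1. Summit positions are coarse, since 3329 of 3477 were multiples of 16 bp. Genes and promoter windows came from RefSeq tables of GRCm38.p6, and 13 mitochondrial genes were left out.

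An interval was counted at a gene on an overlap of at least 1 bp with the body or 10 kb on either side. With 1 library per group no test between conditions was possible, and counts are given beside the share over all protein-coding genes. The members and the gene lists were chosen with earlier results of these data known, and the CpG classes after the intervals were seen. All Hox genes could be named, but the results for some genes are not reported here. Of the lists, up to 6 genes with the tallest summits were named, and Kmt2b, Meis1, Cd3e and Hotair, without an interval, were named after their values were seen. Alternatives were other distances, heights, overlaps and motifs. Scripts in Python 3.11.15, with matplotlib 3.10.9, scipy 1.17.1, pandas 2.3.3 and numpy 2.4.6, were tested on simulated data.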

Additional observations from a re-analysis of the deposited data

How the results depend on the processing

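Of 23 comparisons with an alternative, 11 gave a value within 1.5 times that reported and 12 moved beyond it. In place of 2 Hox genes with an interval, 1 was found with the gene body alone, 1 with 1 kb and 7 with 50 kb, always at the same single interval. With heights at or above the median, or of at least 19, 0 Hox genes and 0 intervals were left, against 10.7% and 6.05% of all protein-coding genes, which follows from the height of 15. Without the chromosome 15 cluster, 0 of 30 genes were left. The median distance from a Hox gene to a summit rose from 353 kb to 732 kb with heights at or above the median. In place of 10 of 24 Hox promoter windows with TAATT (41.7%, against 23.5% of all), 7 held it before the start (29.2% against 22.2%), 2 held TAATTG or CAATTA (8.33% against 6.83%), and 5 were CpG-rich. The lists other than Hox and forkhead, with 122 genes, fell from 38 to 22 with an interval at heights at or above the median, and 30 had one at 1 kb. Of the 44 forkhead genes, 8 had one, 5 at those heights and 8 at 1 kb. The restrictions to CpG-rich windows, of the other lists and to clusters outside chromosome 15 were chosen after seeing the data. Leaving out intervals called in the input, or asking for an overlap of 50% of the interval, left both the 2 Hox genes and the 1 interval in place. No paired analysis was possible because there was a single library on each side, and for the same reason no replicate could be left out. The unknown depth limits every statement on absence, since a gene without an interval is one where none was called.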

Other observations

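The noncoding genes inside the Hox clusters lie in the same stretches between summits as the coding genes, so their distances follow from position. Of 25 long noncoding RNA genes, 1 had an interval within 10 kb, Gm29905, and this was the interval of Hoxc6. Hotair, the long noncoding RNA of the Hoxc cluster, and the 6 microRNA genes had none. The share over all noncoding genes was not computed, so whether these counts are low cannot be said. Mir615 and Mir196a-2 of the Hoxc cluster were 15.6 kb and 25.8 kb from the summit. Mir196b of the Hoxa cluster was 324 kb away, Mir196a-1 and Mir10a of the Hoxb cluster 431 kb and 483 kb, and Mir10b of the Hoxd cluster 934 kb.

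The flanks of the 4 clusters hold related genes, which permits a comparison of paralogs. The families were chosen after their values were seen, so the counts are a description. Of the hnRNP genes, Hnrnpa2b1 near Hoxa had 5 intervals within 10 kb (tallest 18), Hnrnpa1 near Hoxc had 2 (tallest 23) and Hnrnpa3 near Hoxd had 2 (tallest 14). Of the HP1 genes, Cbx3 near Hoxa had 3, of which all 3 also counted at its neighbour Hnrnpa2b1. Cbx5 near Hoxc had 2, which were those of its neighbour Hnrnpa1, and Cbx1 near Hoxb had 0. Of the genes for ATP synthase subunit c, Atp5g2 near Hoxc had 1, while Atp5g1 near Hoxb and Atp5g3 near Hoxd had 0. Skap2 near Hoxa had 1 and Skap1 near Hoxb had 0. Calcoco1 near Hoxc, Calcoco2 and Snx11 near Hoxb and Snx10 near Hoxa had 0. Other related genes of the flanks, among them Nfe2l3, Nfe2l1, Nfe2 and Nfe2l2, were not counted. Of the genes counted, 3 of 4 near Hoxa, 3 of 4 near Hoxc, 1 of 2 near Hoxd and 0 of 5 near Hoxb had an interval. The shares over all protein-coding genes of those chromosomes were 17.9%, 36.7%, 19.0% and 22.9%, in the same order. None of the intervals at the genes counted was called in the input.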
